A study of Mus musculus with 12 samples.

Results

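The Pax2, Sox14, Foxb2 and Mir9-3 loci carried some of the longest and strongest blocks of trimethylated lysine 27 of histone H3 (H3K27me3) in mouse embryonic fibroblasts (MEFs). They are described here from chromatin immunoprecipitation with sequencing (ChIP-seq) as 4 windows of the mm9 genome build: chromosome 19 from 44780000 to 44920000 (Pax2), chromosome 9 from 99755000 to 99790000 (Sox14), chromosome 19 from 16930000 to 16965000 (Foxb2) and chromosome 7 from 86630000 to 86710000 (Mir9-3). A peak was a member when it overlapped a window by at least 1 bp. That gave 180 of the 128880 peaks in the 8 deposited lists, namely 154 of 68085 H3K27me3 peaks and 26 of 60795 peaks of trimethylated lysine 4 (H3K4me3).

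The lists came from 4 conditions of primary MEFs on a hybrid 129/B6 background. These were wild type (WT, lincRNA-p21+/+) and knockout (KO, lincRNA-p21-/-) cells, each mock treated or given doxorubicin for 24 h. The labels write the dose as 0.5 mM, a unit that may be a slip for micromolar and was not checked here. LincRNA-p21 is a noncoding transcript that p53 switches on, and doxorubicin damages DNA. The labels do not say how many embryos or cultures stand behind a library. Each mark had 1 library per condition, so no spread between replicates was measured, no condition was tested against another, and read depth, which the lists do not give, cannot be told apart from the condition. The deleted locus and markers of fibroblasts were not placed on mm9 here, so the genotype and cell type stand as labelled.

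H3K27me3 is laid down by Polycomb repressive complex 2 and marks genes that a cell lineage keeps silent, above all developmental regulators. H3K4me3 marks the starts of active genes, and a start that carries both marks is called bivalent, a state held to keep a silent gene open to later use. The 4 loci encode regulators that fibroblasts do not normally use. Pax2 is a paired-box transcription factor of the kidney, eye and hindbrain. Sox14 is an SRY-box factor of brain and spinal cord interneurons, Foxb2 is a forkhead factor of the early nervous system, and Mir9-3 is one of the genes for miR-9, a microRNA that promotes neuronal differentiation. In the RefSeq gene order of the GRCm38.p6 build, the neighbouring protein-coding genes were Hif1an and Slf2 around Pax2, Cldn18 and Il20rb around Sox14, Vps13a and Prune2 around Foxb2, and Polg and Rhcg around Mir9-3.

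The mature microRNAs of the Mir9-3 hairpin are shown because they are the product of the marked locus; capitals mark the seed, bases 2 to 8. Both are also made from Mir9-1 and Mir9-2, so that 3 loci give the same molecules, and no other microRNA name in the RefSeq table had either seed.
mmu-miR-9-5p: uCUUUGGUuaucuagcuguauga
mmu-miR-9-3p: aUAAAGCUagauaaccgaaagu

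Polycomb marks and H3K4me3 both favour DNA rich in CpG, so the promoters of the loci are shown with each CpG in capitals. They run from 250 bases before to 50 bases after a RefSeq start in GRCm38.p6. That build differs from the mm9 of the peaks, and the starts were not placed against the peaks. Mir9-3 has no entry of its own and is represented by its host transcript, Mir9-3hg. Of the 3 Pax2 and 2 Mir9-3hg starts, the one with the most CpG is printed. The positions are chr19:44756656-44756955 on the plus strand (Pax2), chr9:99876121-99876420 on the minus strand (Sox14), chr19:16873781-16874080 on the minus strand (Foxb2) and chr7:79499776-79500075 on the plus strand (Mir9-3hg).
Pax2: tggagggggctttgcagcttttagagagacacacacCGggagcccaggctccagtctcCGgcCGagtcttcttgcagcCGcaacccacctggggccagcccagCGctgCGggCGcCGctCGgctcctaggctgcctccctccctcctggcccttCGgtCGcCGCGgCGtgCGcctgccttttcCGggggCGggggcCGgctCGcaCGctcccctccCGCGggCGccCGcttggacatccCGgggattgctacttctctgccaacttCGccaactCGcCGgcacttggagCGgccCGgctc
Sox14: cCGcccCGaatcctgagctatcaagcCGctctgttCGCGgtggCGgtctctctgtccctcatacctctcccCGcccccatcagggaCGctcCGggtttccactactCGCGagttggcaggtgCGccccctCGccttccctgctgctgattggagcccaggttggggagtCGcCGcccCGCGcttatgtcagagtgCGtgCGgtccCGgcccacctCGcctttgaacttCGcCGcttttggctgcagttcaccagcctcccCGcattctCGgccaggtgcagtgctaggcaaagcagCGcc
Foxb2: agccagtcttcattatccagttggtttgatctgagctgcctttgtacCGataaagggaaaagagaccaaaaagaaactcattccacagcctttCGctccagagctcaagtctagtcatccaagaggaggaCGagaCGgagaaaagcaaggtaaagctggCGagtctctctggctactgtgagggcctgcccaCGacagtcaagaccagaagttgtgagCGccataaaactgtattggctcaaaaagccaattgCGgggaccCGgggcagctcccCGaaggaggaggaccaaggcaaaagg
Mir9-3hg: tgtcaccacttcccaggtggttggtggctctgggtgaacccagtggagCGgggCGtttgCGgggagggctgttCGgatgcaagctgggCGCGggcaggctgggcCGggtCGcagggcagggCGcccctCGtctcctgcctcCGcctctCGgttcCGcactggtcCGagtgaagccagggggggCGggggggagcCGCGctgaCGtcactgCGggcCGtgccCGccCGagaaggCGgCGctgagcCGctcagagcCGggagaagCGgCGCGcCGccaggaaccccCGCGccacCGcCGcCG

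The printed Mir9-3hg promoter held 35 CpG in 300 bases, more than or as many as 93.8% of 32851 RefSeq promoters, whose median was 7. The printed Pax2 promoter held 30 (percentile 89.4) and that of Sox14 held 26 (percentile 84.5). Of the 4 printed promoters, that of Foxb2 held the fewest CpG, 10 (percentile 58.6), which was still above the median. Its observed-to-expected CpG ratio was 0.50, against 0.84 for Mir9-3hg, 0.79 for Pax2 and 0.82 for Sox14. The median ratio over the RefSeq promoters was 0.38. The other Pax2 starts held 7 and 23 CpG, and the other Mir9-3hg start held 28. The 4 printed promoters thus differed in CpG count, and 5 of the 7 starts held more CpG than 3 in 4 promoters. For Pax2 and Mir9-3hg the printed count is that of the richest start.

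**Figure D1:**
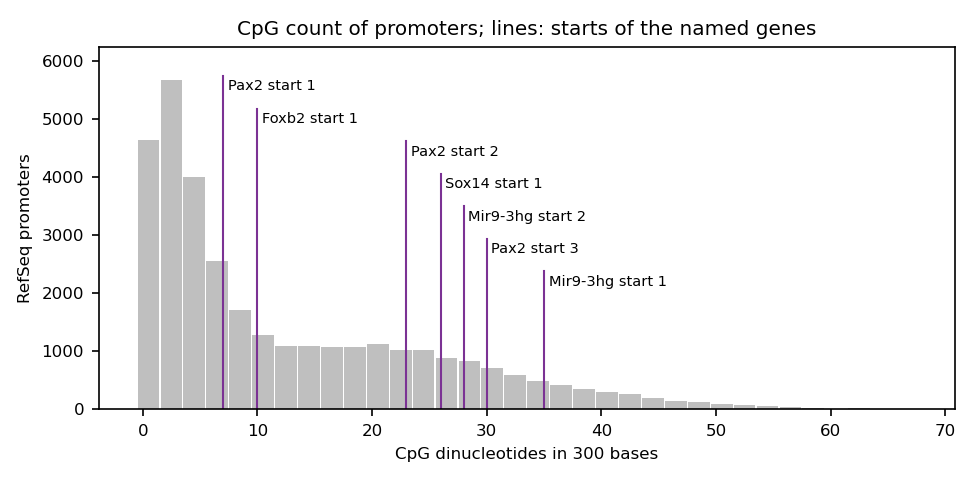
Number of RefSeq promoters (vertical axis) by the count of CpG dinucleotides in 300 bases (horizontal axis); each line marks a start of a named gene. The starts of Mir9-3hg, Sox14 and 2 of 3 Pax2 starts lie at 23 to 35 CpG, and Foxb2 and the other Pax2 start lie at 10 and 7.

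The windows were picked on H3K27me3 length or score, so these values are a description. Among 6335 H3K27me3 regions, made by joining overlapping peaks of the 4 lists and present in all of them, the Mir9-3 region was 68.2 kb long and second by length. The main Pax2 region, at 64.2 kb, was the next. After it came a region of 58.4 kb outside the windows. Ranked by the mean over the lists of the highest score, which is the peak caller's -10 log10 p, the Foxb2 region was first at 2973 and the Sox14 region second at 2962. The next region outside the windows had 2941. The score is the authors' own value, its lists end at a floor of 80 and pile up at 3100, and its level differs between lists.

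The Pax2 window held 3 H3K27me3 regions that were present in all 4 lists, from 44788501 to 44852735, from 44853226 to 44867682 and from 44870204 to 44915337. Peaks covered 125.0 kb of its 140 kb in mock and 111.0 kb in doxorubicin-treated WT cells, with 104 kb and 97.6 kb in the matching KO cells. The same 4 lists split this cover into 14, 19, 29 and 31 peaks. The longest peak was 42.0 kb in WT mock and 34.0 to 34.9 kb in the other lists. The best scored one was instead the peak at the right end of the window, about 10 kb wide in WT doxorubicin and both KO lists, with scores of 3100, 3100 and 3018. In WT mock that stretch was part of a 16.4-kb peak scored 2257. A gap of 2521 bp between the last 2 of these regions, from 44867683 to 44870203, had no H3K27me3 peak in any list. Outside the 3 regions, stretches of 5680 bp (44780370 to 44786049) and 2049 bp (44915338 to 44917386) had none either.

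The Mir9-3 domain was the longest of the 4. Peaks covered 69.5 kb of the 80-kb window in mock and 70.2 kb in doxorubicin-treated WT cells, with 65.5 kb and 66.2 kb in the matching KO cells, in 6, 10, 12 and 12 peaks. The outer edges of its joined region differed little between libraries, within 0.998 kb on the left and 0.551 kb on the right. The highest score in the window was 2651 in mock and 2091 in doxorubicin-treated WT cells, with 996 and 2182 in the matching KO cells. KO mock had the lowest of these listed values, but score levels are not comparable between lists. KO mock also had the lowest cover of the window, by a far smaller margin.

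The Sox14 and Foxb2 domains were strongly scored, and shorter than the longest regions at the other loci. Among all shared regions they were still long. The joined Sox14 region, at 19.1 kb, ranked 191 by length of 6335, and the joined Foxb2 region, at 18.4 kb, ranked 209. The Sox14 window was covered over 18.1 kb in mock and 18.8 kb in doxorubicin-treated WT cells, with 17.3 kb and 15.5 kb in the matching KO cells. In both WT lists this was 1 unbroken peak, and in the KO lists a peak of 14.7 and 14.4 kb with 2 and 1 small ones beside it. The Foxb2 window was covered over 20.9 kb in mock and 16.6 kb in doxorubicin-treated WT cells, with 15.2 kb and 16.7 kb in the matching KO cells. Its central peak was 16.5, 13.3, 12.6 and 13.7 kb wide in that order, and the differences in cover lay in that peak and in small outlying peaks scored 80.5 to 248. Outer edges of the joined Sox14 and Foxb2 regions varied by 1.04 to 2.26 kb over the 4 libraries.

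**Figure D2:**
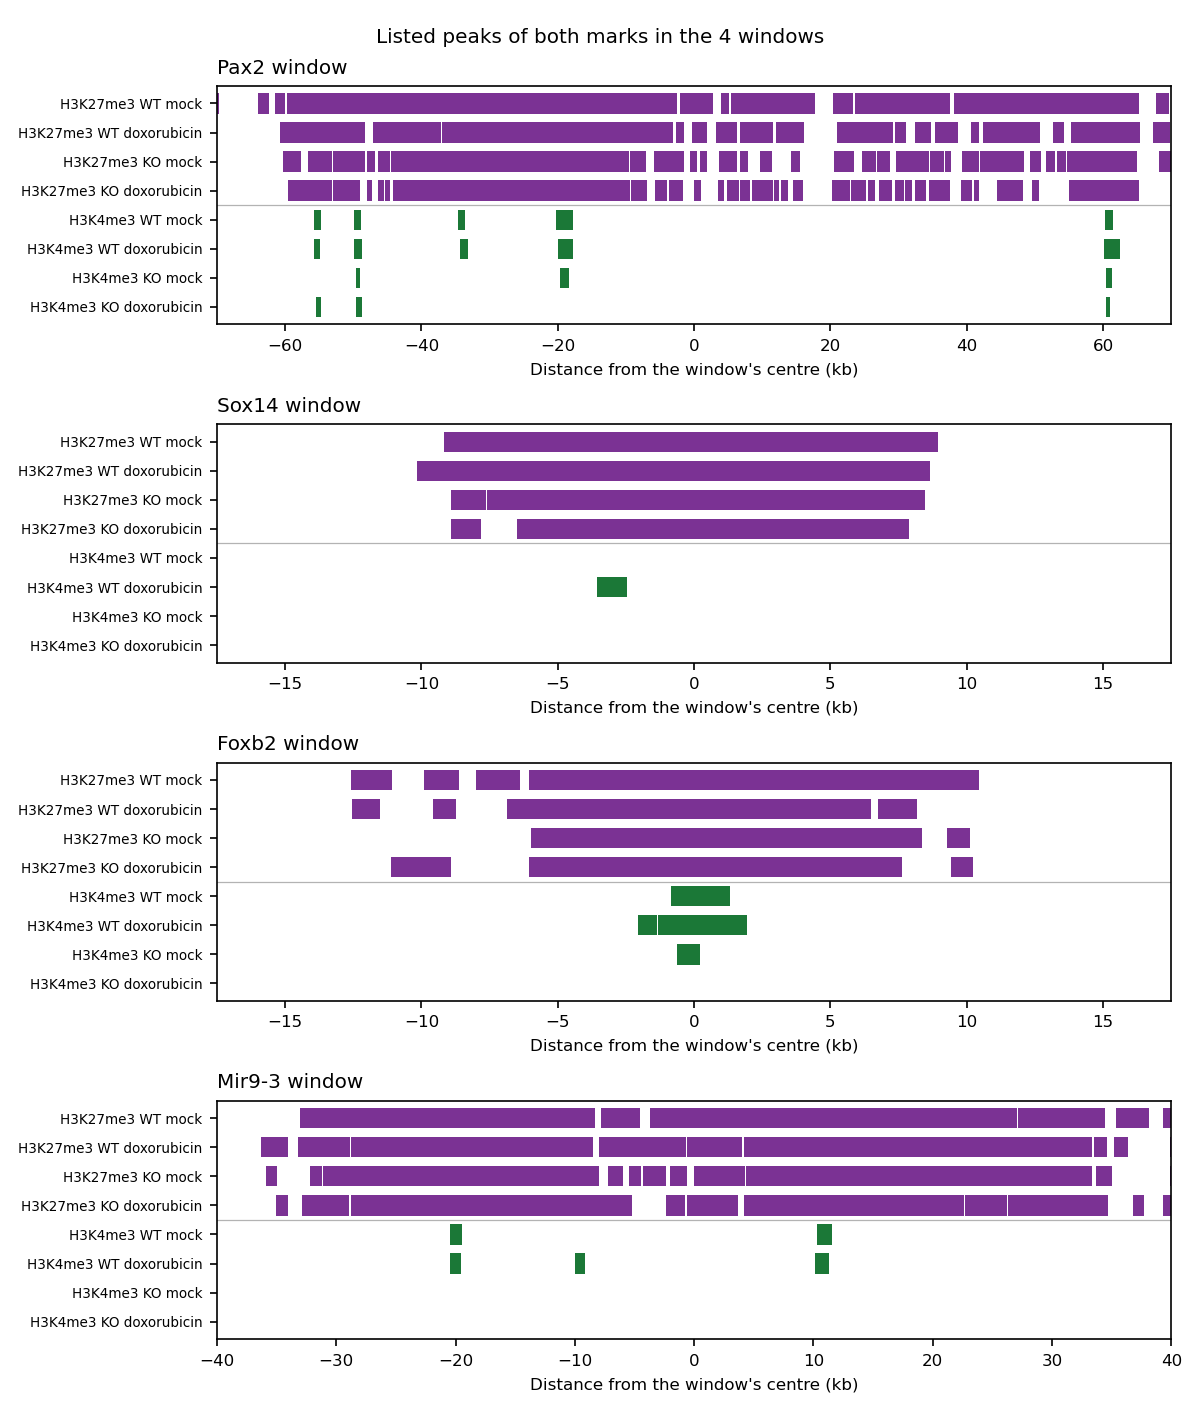
Peaks listed in each of the 8 libraries (rows) against distance from the window's centre in kb (horizontal axis), with H3K27me3 in purple and H3K4me3 in green. H3K27me3 fills largely the same blocks in every row, with 25 peaks in WT mock and 48 in KO doxorubicin, and H3K4me3 thins out from 11 peaks in WT doxorubicin to 3 in KO doxorubicin.

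Over the 4 windows H3K27me3 covered 233.5 kb in mock and 216.7 kb in doxorubicin-treated WT cells, with 202.0 kb and 195.9 kb in the matching KO cells. The number of peaks went the other way, with 25, 34, 47 and 48, so that the lists with less cover held more pieces. Once peaks less than 3 kb apart were joined, 5, 6, 7 and 6 pieces were left. WT mock also had the highest cover outside the windows: the median over the 762 other regions of at least 10 kb present in all 4 lists was 95.3%, 87.6%, 85.4% and 83.3% in the same order. Bases covered in all 4 lists made up 64.1% of those covered in any list at Pax2, 81.0% at Sox14, 59.6% at Foxb2 and 80.5% at Mir9-3, against 28.8% over the genome, a gap that the choice of windows brings with it. With doxorubicin 1 of 34 WT peaks was gained, meaning that it overlapped no WT mock peak (29.3% of the whole list), and 2 of 25 were lost, meaning that they overlapped no WT doxorubicin peak (35.4% of the list). In KO cells 4 of 48 were gained (35.3%) and 4 of 47 lost (34.1%). In mock cells 1 of 47 KO peaks was gained over WT (25.5%) and 6 of 25 WT peaks were lost (36.3%). In doxorubicin cells these were 3 of 48 (32.2%) and 4 of 34 (35.3%). Since the rule used H3K27me3, nothing is read from these counts.

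**Figure D3:**
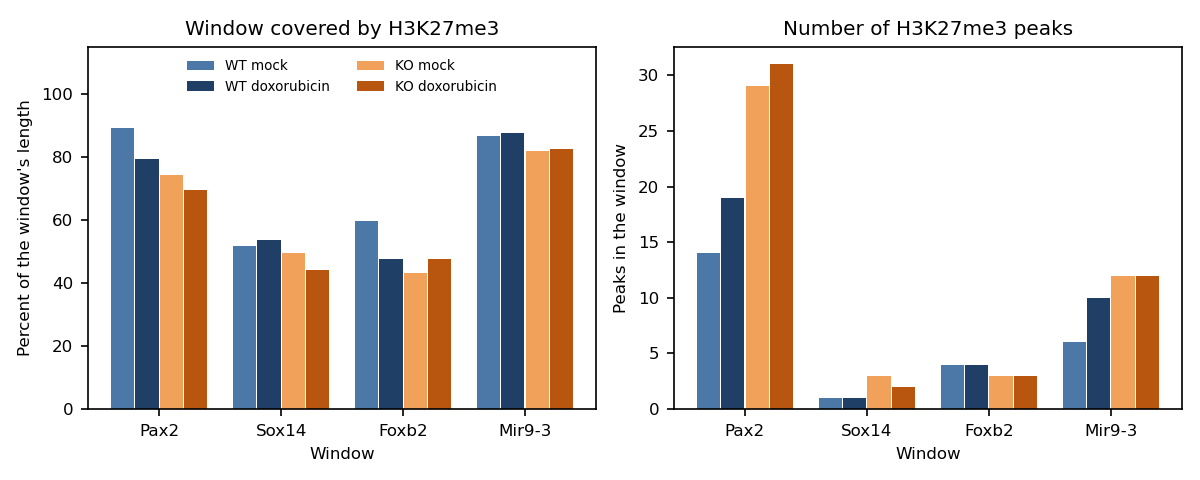
Percent of each window's length covered by H3K27me3 peaks (left) and number of such peaks (right) in each of the 4 libraries, as bars from 0. In the Pax2 window cover falls from 89.3% in WT mock to 69.7% in KO doxorubicin while peaks rise from 14 to 31.

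H3K4me3, which the rule did not use, was present in all 4 windows in WT doxorubicin cells only. WT mock had it in 3 windows, KO mock in 2 and KO doxorubicin in the Pax2 window alone. The lists held 8 H3K4me3 peaks in the windows in mock and 11 in doxorubicin-treated WT cells, with 4 and 3 in the matching KO cells. Every one of these 26 peaks overlapped an H3K27me3 peak of its own condition, against 16.2%, 16.3%, 13.3% and 12.0% of all H3K4me3 peaks in the same order. The H3K27me3 cover of the windows makes such overlap likely. Joined over the lists, the peaks marked 11 places, numbered below by position within each window.

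The Pax2 window had 5 H3K4me3 places and was the one window with H3K4me3 in every library. The strongest, place 4 from 44829686 to 44832261, scored 709 in WT mock, 1381 in WT doxorubicin and 208 in KO mock cells, and no peak was listed there in KO doxorubicin cells. Its width was 2576, 2181 and 1369 bp in the same libraries. The listed score was highest in WT doxorubicin, and the KO libraries had a low score or no peak. Score levels are not comparable between lists, so this ranks listed values only. Place 2, from 44800159 to 44801292, was listed in all 4, with scores of 373 in mock and 421 in doxorubicin-treated WT cells and of 168 and 167 in the matching KO cells. Place 5, from 44910164 to 44912513 and within the best scored H3K27me3 peak of the window, was also listed in all 4, with 268, 489, 107 and 113. Both places had higher scores in the WT lists than in the KO lists. Of all places shared by WT and KO, 11.6% in mock and 54.4% in doxorubicin cells had the higher score in KO. Place 1, from 44794227 to 44795227, scored 129 in WT mock, 232 in WT doxorubicin and 155 in KO doxorubicin and had no KO mock peak. Place 3, from 44815373 to 44816792, scored 125 in WT mock and 269 in WT doxorubicin and was in neither KO list.

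The Foxb2 window had its main H3K4me3 peak inside its central H3K27me3 peak. This place, the second of the window, from 16946193 to 16949441, scored 421 in WT mock, 1072 in WT doxorubicin and 121 in KO mock cells, with no peak in KO doxorubicin cells. The peak was 2178 bp wide in WT mock, 3249 bp in WT doxorubicin and 854 bp in KO mock. The order of the libraries by score, though not by width, was the same as at Pax2 place 4. A small neighbour, from 16945452 to 16946148, was listed in WT doxorubicin alone with a score of 122, next to the edge of the larger peak. H3K27me3 lay over both places in all 4 libraries, with peak scores of 2763 to 3100.

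The Sox14 window had the least H3K4me3 of the 4. A single 1106-bp peak, from 99768925 to 99770030, was listed in WT doxorubicin cells with a score of 235. The nearest listed H3K4me3 peak was 68091 bp away or further in the other libraries, and H3K27me3 covered the whole place in all 4.

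The Mir9-3 window had H3K4me3 in WT cells and none in KO cells. Place 1, from 86649545 to 86650534, scored 82.6 in WT mock, near the floor, and 368 in WT doxorubicin cells. Place 3, from 86680100 to 86681519, scored 152 in WT mock and 460 in WT doxorubicin cells. Both were about 1 kb wide and lay within long H3K27me3 peaks of the WT lists. Place 2, from 86659982 to 86660837, was listed in WT doxorubicin cells alone, with 234.

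**Figure D4:**
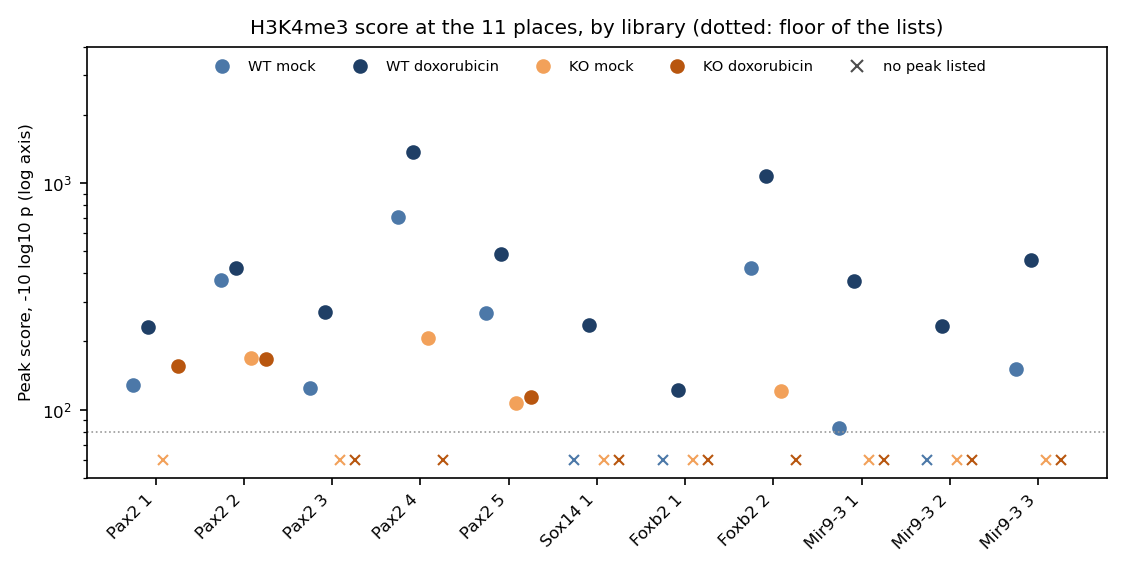
H3K4me3 peak score, -10 log10 p, on a log axis at the 11 places (horizontal axis, window and place number) in each of the 4 libraries; crosses below the dotted floor of 80 stand for no listed peak. WT doxorubicin has a peak at all 11 places and the highest score at each, and KO doxorubicin has 3 peaks, scored 113 to 167. Score levels are not comparable between lists.

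These scores were low for H3K4me3. The window peaks lay between the 0.423 and the 46.6 percentile of their lists, so that all 26 were under their list's median. Score levels are not comparable between lists, and the KO doxorubicin list, with the fewest window peaks, had the highest median score of all its H3K4me3 peaks, at 2141, against 1512 in WT mock, 1526 in WT doxorubicin and 1162 in KO mock cells. The window peaks were also narrow, with a median width of 1107 bp in mock and 1130 bp in doxorubicin-treated WT cells and of 887 and 661 bp in the matching KO cells, against 2029, 1734, 1724 and 1777 bp over the lists. At the 4 places listed in both mock libraries the KO peak was the narrower one each time, as it was at 85.8% of all places listed in both. At the 3 places listed in both doxorubicin libraries it was narrower each time too, against 53.9% of all such places. With doxorubicin, 3 of the 8 places listed in both WT libraries were narrower (72.0% of all such places) and 5 wider, and in KO cells 1 of 2 was narrower (36.3%). Bases under H3K4me3 in all 4 lists made up 15.1% of those in any list at Pax2 and 0 at the other 3 loci, against 63.5% over the genome.

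Most H3K4me3 places of WT doxorubicin cells had no listed peak in KO doxorubicin cells. Of the 11 WT doxorubicin peaks in the windows, 8 overlapped no KO doxorubicin peak (72.7%, exact 95% interval 39.0 to 94.0), against 11.9% of the whole WT doxorubicin list. The lost peaks were all 3 of Mir9-3, both of Foxb2, that of Sox14 and places 3 and 4 of Pax2. Of the 8 WT mock peaks, 4 were lost in KO mock cells (exact 95% interval 15.7 to 84.3%), against 9.32% of the list, namely places 1 and 3 of Pax2 and the 2 of Mir9-3. No window peak of a KO list was missing from the WT list of the same treatment, out of 4 in mock (1.94% of the list) and 3 in doxorubicin cells (4.41%). Where a score of at least 200 was required, 4, 10, 1 and 0 window peaks were left in the 2 WT and the 2 KO lists. By that rule 3 were lost in mock (8.39% of the list at that floor) and 10 in doxorubicin cells (9.78%). The 3 in mock, Pax2 places 2 and 5 and Foxb2 place 2, were listed in KO mock with scores of 168, 107 and 121. Among the 10, Pax2 places 1, 2 and 5 were listed in KO doxorubicin with 155, 167 and 113. The floor thus counted as lost some peaks that were listed under 200 in KO. The intervals cover counting error over peaks only, and peaks of 1 domain are not independent.

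Other broad Polycomb domains showed the same direction. In the 762 other regions of at least 10 kb, 54.1% of 827 WT doxorubicin H3K4me3 peaks were lost in KO doxorubicin and 32.4% of 618 WT mock peaks in KO mock cells. In the windows 8 of 11 peaks were lost in doxorubicin and 4 of 8 in mock cells. The intervals of the windows treat peaks of 1 domain as independent, so they cannot decide whether the loss there was larger. A difference between the 4 loci and the other regions was not tested. In the other regions the KO lists had few H3K4me3 peaks of their own, 4.19% of 453 in mock and 2.02% of 397 in doxorubicin cells. Of the 539 other regions with H3K4me3 in WT doxorubicin cells 41.0% had none in KO doxorubicin cells, as was the case for Sox14, Foxb2 and Mir9-3. Of the 461 with H3K4me3 in both WT lists 19.5% had it in neither KO list, the pattern of Mir9-3. The 7 regions of this kind that overlap the windows had 3.17, 4.36, 1.58 and 1.19 peaks per 100 kb in WT mock, WT doxorubicin, KO mock and KO doxorubicin cells, against 4.93, 6.58, 3.61 and 3.17 in the other regions. They include the region on chromosome 7 from 86709314 to 86732309, which lies mostly outside the Mir9-3 window and has no H3K4me3 peak. Its length lowers the densities of the 7.

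Over the whole lists absence became rarer as the score rose, so strongly scored window peaks were bound to have low shares absent at their score. Peaks of like score at H3K27me3 were taken from the whole list, not from broad regions alone. Among WT doxorubicin peaks within 5 percentile points of Pax2 place 4 by score, 1.15% were absent in KO doxorubicin cells, and 7.28% of the 261 of them that overlapped H3K27me3. For Foxb2 place 2 these were 3.10% and, at H3K27me3, 13.2% of 372. For the other 6 lost peaks, 42.7 to 88.4% of peaks with a like score at H3K27me3 were absent as well. The 3 peaks of Pax2 that were kept had 41.0 to 69.3%. In mock cells, also at H3K27me3, the 4 lost peaks had 62.0 to 78.3% and the 4 kept ones 0.973 to 29.4%. In doxorubicin cells the range of the 6 lost peaks thus overlapped that of the 3 kept ones. Whether the score accounts for the absences was not tested.

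**Figure D5:**
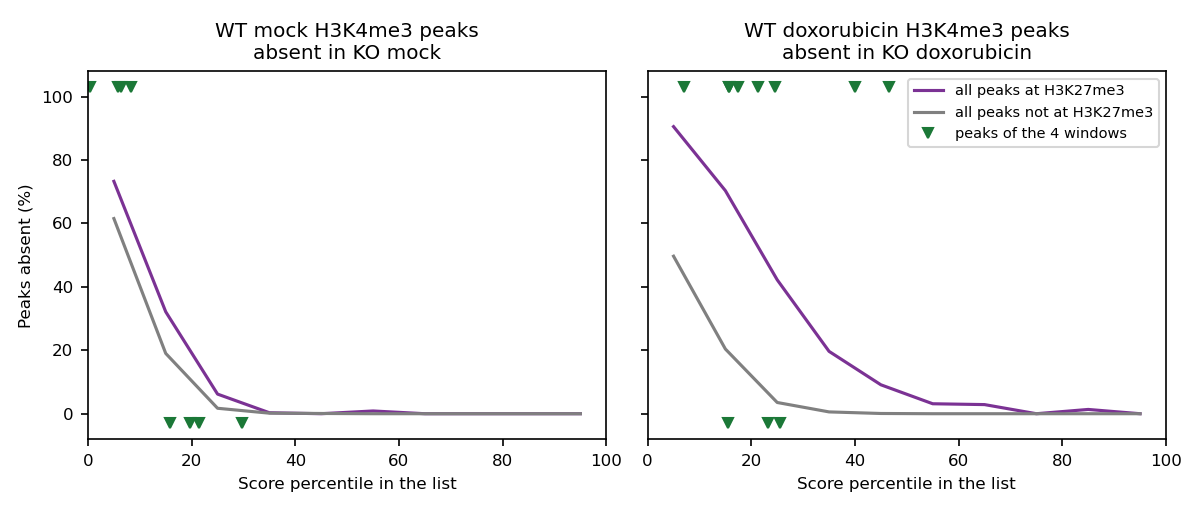
Percent of WT H3K4me3 peaks absent from the KO list (vertical axis) by score in the WT list (horizontal axis, percentile, in 10 bins that tied scores make unequal at the top), for mock (left) and doxorubicin (right), with peaks at H3K27me3 in purple and the others in grey. Triangles above 100 and below 0 stand for window peaks that were absent and present; in doxorubicin cells 2 of the 8 absent ones lie at percentiles 40.0 and 46.6.

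The deposited peak numbers follow position, and the lists skip numbers, possibly where peaks under the floor were removed, which the sources used here do not state. If so, a place without a listed peak whose 2 neighbours carry consecutive numbers has no number left for a removed peak. Such a place may still hold signal that was never given a number. Of the 8 places absent in KO doxorubicin cells 6 were of this kind: both of Foxb2, that of Sox14 and the 3 of Mir9-3. Both Foxb2 places lay between the same neighbours, 174 kb apart, and so did the 3 of Mir9-3, 192 kb apart. These places are therefore not separate observations. At Pax2 places 3 and 4 a single number was missing over the 109 kb between the neighbours. Of the 4 places with a WT mock peak and none in KO mock cells 2 were of this kind, places 1 and 3 of Pax2, and around the 2 of Mir9-3 there were 2 missing numbers over 192 kb. Over all WT doxorubicin peaks absent in KO doxorubicin cells the share was 63.0%, and over all WT mock peaks absent in KO mock cells 50.9%.

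Doxorubicin against mock went with more H3K4me3 in the windows of WT cells. Of the 11 WT doxorubicin peaks 3 were gained (8.25% of the list), those of Sox14, the small Foxb2 neighbour and Mir9-3 place 2, and 0 of 8 WT mock peaks were lost (2.21%). Among WT doxorubicin peaks of like score at H3K27me3, 35.6%, 68.6% and 36.3% were absent in WT mock for these 3. For the other 8 peaks that share was 0 to 36.5%. At the 8 places listed in both WT libraries the score was higher in WT doxorubicin each time, as it was at 60.3% of all 14430 places listed in both. In the other broad regions 26.4% of 827 WT doxorubicin peaks were gained and 1.94% of 618 WT mock peaks were lost. In KO cells 1 of 3 peaks was gained (8.84%), at Pax2 place 1, and 2 of 4 were lost (2.69%), at Pax2 place 4 and Foxb2 place 2. In the other broad regions 12.8% of 397 KO doxorubicin peaks were gained and 22.5% of 453 KO mock peaks were lost. The difference in direction between the genotypes was not tested.

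By a rule that used the share of a region covered by each mark in each of the 4 conditions, 8 values in all, the region most like the main Pax2 region was on chromosome 9 from 40676410 to 40706806 (distance 0.051, against a median of 0.24 over 762 regions). The next was on chromosome 5 from 28478324 to 28508673 (0.055). Nearest to Sox14 were chromosome 2 from 31164739 to 31175777 (0.048) and chromosome 11 from 70158803 to 70169446 (0.049), both with H3K4me3 in WT doxorubicin cells alone. Since the rule used H3K4me3 cover, it favours such a shared pattern. Nearest to Foxb2 were chromosome 10 from 126511932 to 126523353 (0.11) and chromosome 3 from 87792238 to 87809798 (0.11). Nearest to Mir9-3 were chromosome 4 from 115598608 to 115657006 (0.040), which kept H3K4me3 over 2.18% (mock) and 1.68% (doxorubicin) of its length in KO cells, and chromosome 19 from 43654027 to 43700530 (0.048), which had none in either. No gene name is given to these regions because no mm9 annotation was used.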

How the data were processed

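ChIP-seq peak lists of 8 libraries (2 marks in 4 conditions) were used. Input controls (4 libraries) are not used here. The submitters' processing notes name MACS 1.4.2, Bowtie 0.12.7 and the mm9 build. Per the file headers, the deposited score of a peak is -10 log10 of its p-value. No list had a score under 80, and read depth is unknown. Deposited starts were taken to count from 0 and are printed counting from 1. Members, windows and regions were chosen with earlier results of these data known. Sharing meant at least 1 bp of overlap. Regions joined overlapping peaks of the 4 lists of a mark, and those of at least 10 kb in all 4 H3K27me3 lists served as the comparison. The text names the 4 windows, every H3K4me3 place in them and the 2 nearest regions per window. Promoters and microRNAs came from RefSeq tables (GRCm38.p6), in which 4 genes matched a promoter. No coordinate was converted. Exact (Clopper-Pearson) 95% intervals cover counting error only. Alternatives were higher score floors, equal list lengths, other overlap rules and joining of close peaks. All 6 interval rules gave back the known answer when tested on simulated peaks made from 16160 peaks. Scripts ran in Python 3.11.15 with pandas 2.3.3, numpy 2.4.6, matplotlib 3.10.9 and scipy 1.17.1.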

Additional observations from a re-analysis of the deposited data

Results flagged for a closer look

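Several values moved in opposite directions in groups compared in the same way, each resting on 1 library per condition, and none of these differences was tested. Doxorubicin went with 3 more H3K4me3 peaks in the 4 windows in WT cells and with a change of -1 in KO cells. Foxb2 alone had 1 more in WT cells and a change of -1 in KO cells. H3K27me3 cover of the Sox14 window changed by 0.693 kb with doxorubicin in WT cells and by -1.88 kb in KO cells. Cover of the Foxb2 window changed by -4.26 kb with doxorubicin in WT cells and by 1.53 kb in KO cells. KO minus WT, the Foxb2 cover changed by -5.76 kb in mock cells and by 0.034 kb in doxorubicin cells. The latter is nearly no change and was flagged by its sign alone.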

How the results depend on the processing

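No paired analysis was possible because each mark and condition had 1 library. With equal numbers of top-scoring peaks all 32 values stayed within 1.5 times of those reported. H3K27me3 cover did so in every alternative run on it. With a score of at least 200, H3K4me3 peaks numbered 4 in mock and 10 in doxorubicin-treated WT cells, with 1 and 0 in the matching KO cells, and the same 4, 1 and 0 overlapped H3K27me3 in WT mock, KO mock and KO doxorubicin. In that setting H3K4me3 gains with doxorubicin were 6 in WT and 0 in KO cells, with 1 loss in KO. Losses in KO against WT were 3 in mock and 10 in doxorubicin cells. With that floor a peak also counts as gained or lost where its partner in the other list scored under 200. H3K27me3 peaks then numbered 16 in WT mock, 25 in KO mock and 25 in KO doxorubicin. H3K27me3 gains were 2 (WT) and 1 (KO) with doxorubicin and 0 for KO mock against WT mock. Losses were 2 with doxorubicin in KO and 3 for KO mock against WT mock. With a score of at least 100, H3K27me3 losses were 5 with doxorubicin in WT and 2 for KO against WT in doxorubicin. Joining peaks less than 3 kb apart left 5, 6, 7 and 6 H3K27me3 peaks in WT mock, WT doxorubicin, KO mock and KO doxorubicin, so that the larger number of pieces in KO cells rested on gaps under 3 kb. It left 0 H3K27me3 gains in all 4 comparisons and 0 losses in 3, with 1 loss for doxorubicin in KO. With an overlap of at least 50%, H3K27me3 with doxorubicin had 2 gains and 4 losses in WT and 10 losses in KO, and KO against WT in doxorubicin had 6 gains and 7 losses. Sharing within 1 kb gave 2 gains and 2 losses with doxorubicin in KO and 1 gain and 1 loss for KO against WT in doxorubicin. The cause of these shifts was not tested beyond what each rule does by construction. Peaks near the floor can drop out of a list without a change in signal, and read depth is unknown.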

Other observations

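The right edge of the Mir9-3 window touched a second H3K27me3 region, on chromosome 7 from 86709314 to 86732309, which is 23.0 kb long and present in all 4 lists. A stretch of 1215 bp, from 86708099 to 86709313, was free of listed H3K27me3 peaks in every library and parted it from the peaks to its left. It had no H3K4me3 peak in any library. The middle Pax2 region, from 44853226 to 44867682, also had none. H3K27me3 covered 93.4% of it in mock and 83.1% in doxorubicin-treated WT cells, with 46.7% and 72.7% in the matching KO cells, so that KO mock had the lowest cover.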
